A study of Mus musculus with 4 samples.

Results

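Procr encodes the endothelial protein C receptor, which is used in the mouse mammary gland as a surface marker of a subset of basal cells with stem cell activity. It was described here together with 6 genes that act beside it in coagulation and protease signaling, namely Thbd, Pros1, F3, Tfpi, F2r and F2rl1. The 7 genes were taken by name, and all 7 were found among the 17630 genes listed in the files, of which 17512 could be matched to a mouse symbol.

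The study asked how sympathetic nerves act on the mammary gland and its stem cells (MaSCs), and RNA was sequenced from 4 libraries of wild-type (WT) mouse cells, all labelled as primary mammary basal cells. The first pair was of freshly sorted basal cells, from control mice, labelled as having no treatment and given saline in the 6-OHDA experiments of the study, and from mice given 6-hydroxydopamine (6-OHDA), a toxin taken up by noradrenergic nerve endings. The second pair was of colonies grown in Matrigel from basal cells, without agonist (control) and with salbutamol plus phenylephrine (SP), agonists of the β2- and α1-adrenergic receptors. Colonies were grown with epidermal growth factor and insulin in the medium, per the methods of the study. The titles of the colony libraries carry the numbers 0 and 200 with no unit. The labels do not give the strain, the age or the number of mice behind a library. Each group had 1 library, so differences between groups have no replicate check and no test was made.

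In the protein C pathway, thrombin bound to thrombomodulin activates protein C, the endothelial protein C receptor presents protein C to that complex, and protein S serves as cofactor of the activated enzyme. Tissue factor starts coagulation and is held in check by tissue factor pathway inhibitor, while the protease-activated receptors PAR1 and PAR2 turn cleavage by such proteases into signals inside the cell. Endothelial cells are a main site of the receptor and of thrombomodulin, whereas basal epithelia are known for tissue factor and PAR2.

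The cell type label was first set against marker genes. The 10 basal markers were above 0 in all 4 libraries and summed to 10297 FPKM, a level scaled to transcript length and to the size of the library, in sorted control cells, 9298 in sorted 6-OHDA cells, 6783 in control colonies and 14704 in SP colonies, with Krt14 as their most abundant gene in each. The 12 luminal markers summed to 1432, 1298, 1981 and 1868 FPKM in the same order, led by Krt8. The gate of the study leaves out cells with CD31, the product of Pecam1, yet the 12 endothelial markers summed to 489 FPKM in sorted control cells and 483 in sorted 6-OHDA cells, with 11 and 12 of them at 5 FPKM or more. In the colonies the same markers summed to 14.4 FPKM without SP and 7.29 with SP. Pecam1 was the most abundant of them in sorted control cells, at 106.6 FPKM, and Plvap in sorted 6-OHDA cells, at 99.9. Erg led in control colonies, at 10.3 FPKM, and Egfl7 in SP colonies, at 3.59. None of the 12 was listed at 0 in the sorted cells or in the control colonies, and Tie1 and Cldn5 were listed at 0 in the SP colonies. The sorted libraries thus held endothelial transcripts, which goes against the gate, and the colonies held few. The leukocyte markers, which the gate also leaves out, summed to at most 7.01 FPKM, in sorted control cells, where Cd52 led with 2.28.

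The 6-OHDA library stood apart in a further way. The 11 salivary gland secretory genes in the files summed to 15967 FPKM there, 3.09% of all FPKM of that library, led by Bpifa2 with 7277 FPKM. They summed to 1.97 FPKM in sorted control cells, 1.46 in control colonies and 1.26 in SP colonies. Only the comparison of 6-OHDA with control sorted cells uses this library, and with 1 library per group it could not be made without it. With the libraries rescaled without these genes, an alternative chosen after seeing the data, the difference of Procr in that comparison was -0.39. Such rescaling changes each library by a single factor, so it does not test what else set the 6-OHDA library apart.

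The members were first compared by level, as FPKM is per length and can be set side by side between genes. In sorted control cells Procr was the highest of the 7, and 98.3% of the listed genes were lower than it. Pros1, F3, Thbd, F2r, F2rl1 and Tfpi followed, down to 10.4 FPKM for Tfpi. In sorted 6-OHDA cells the first 5 genes kept this order, and Tfpi and F2rl1 changed places. In control colonies the order was Pros1, F2rl1, F3, Tfpi, F2r, Procr and Thbd, and in SP colonies F3, Pros1, F2rl1, Tfpi, Procr, F2r and Thbd. The summed level of the 7 genes was 574 FPKM in sorted control cells, 491 in sorted 6-OHDA cells, 98.7 in control colonies and 102.2 in SP colonies.

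**Figure D1:**
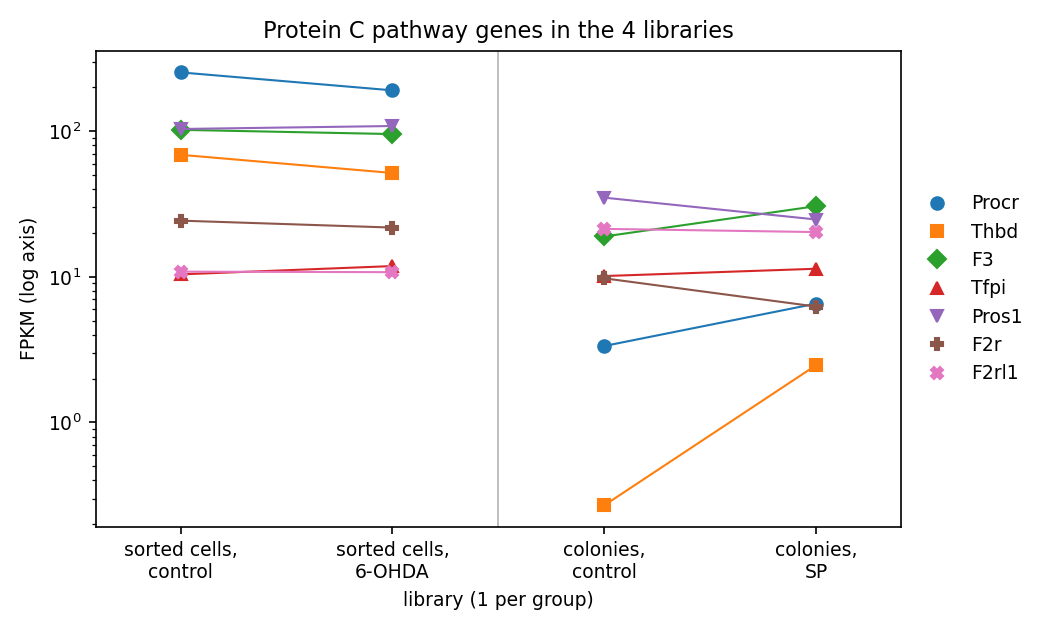
FPKM (log axis) of the 7 members in the 4 libraries, with 1 point per gene and library and a line joining the libraries of a pair. Procr lies highest in both sorted libraries, at 253 and 191 FPKM, and below 10 FPKM in both colony libraries, where Thbd lies lowest at 0.27 and 2.48 FPKM.

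The receptor and the cofactor that work together in protein C activation came first. Procr (NCBI Gene 19124, at chr2:155751125-155755478 of GRCm38.p6) was listed at 253 FPKM in sorted control cells, 191 in sorted 6-OHDA cells, 3.35 in control colonies and 6.55 in SP colonies. Thbd (NCBI Gene 21824, chr2:148404471-148408188), which encodes thrombomodulin, was listed at 68.9, 51.6, 0.27 and 2.48 FPKM in the same order. For both genes the sorted libraries were high, the colonies were low, and within each pair the direction was the same, lower with 6-OHDA and higher with SP.

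Differences were taken as log2(FPKM + 1) of a library minus that of its control, a scale that understates the change of genes at low level, and genes with a mean of at least 1 FPKM over the 2 libraries were compared. A gene was counted as higher or lower when the difference was over 0.3 in size for 6-OHDA and SP, and over 1 between control colonies and sorted control cells. With 6-OHDA, Procr and Thbd each had a difference of -0.41, and they were the 2 members counted as lower, with 0 members higher. Of all 11749 genes compared, 8.35% were lower and 15.8% higher by this fold, and the higher genes were 65.4% of those past it, or 50.5% after scaling by the median ratio and 47.4% after quantile normalization. The median difference was -0.10 over the 7 members and 0.06 over all genes compared. In these bulk libraries, fewer cells of a type and less RNA per cell cannot be told apart.

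The endothelial markers were set beside this difference. Their sum was 1.01 times as high in sorted control cells as in sorted 6-OHDA cells, and of the 12 markers, 2 were higher, Emcn (20.4 to 29.0 FPKM) and Tek (4.86 to 6.92), and 0 were lower. Pecam1 had a difference of -0.19 and Cdh5, which encodes VE-cadherin, one of -0.16, both smaller in size than that of Procr. Of the 10 basal markers, Krt14 (3595 to 2633 FPKM) and Krt17 (2266 to 1643) were lower and Acta2 (1949 to 2575) was higher. For these counts, 8.35% of all genes compared were lower and 15.8% higher. Of 11 luminal markers compared 3 were lower and 1 higher, with 0 higher after scaling by the median ratio. Of the 10 leukocyte markers 2 were compared and both were lower, Cd52 (2.28 to 1.53 FPKM) and Coro1a (1.4 to 0.67). Coro1a was below 1 FPKM with 6-OHDA and could be counted only as lower. The sum of the leukocyte list went from 7.01 to 4.59 FPKM. Of the 10 fibroblast markers 6 were higher and 0 lower. Pi16, among the 6, was below 1 FPKM in control cells and could be counted only as higher. The sum of the fibroblast list went from 224 to 429 FPKM, with no marker at 0. The collagen genes Col1a1 (14.0 to 55.4 FPKM), Col1a2 (21.4 to 71.0) and Col3a1 (18.3 to 91.7) made up most of that gap, while Dcn, the most abundant gene of the list in both libraries, was within the fold (0.22). The part of these markers in the result was not tested.

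With SP, the difference of Procr was 0.80 and that of Thbd 1.45. At a pseudocount of 5 these were 0.47 and 0.51, at 0.1 that of Thbd was 2.80, and with a filter at a mean of 5 FPKM neither gene was compared. Thbd passed the filter on low values only through the SP library, so that it could be counted only as higher. Low FPKM values move in steps of a single fragment, and the size of these steps in 292 to 338 genes per fit with a single annotated transcript put Thbd at about 16 to 17 fragments in control colonies and 150 to 160 in SP colonies, for assumed fragment lengths of 150 to 300 bases. These are rough estimates, as the depth of the libraries is not given in the files. The ranges cover the assumed lengths only, not the error of the fits. By the same measure the deepest library had 1.08 times the depth of the shallowest at an assumed length of 250 bases. Over the 7 members 3 were higher (Procr, Thbd and F3) and 2 lower (Pros1 and F2r). Of all 11849 genes compared, 11.7% were higher and 19.8% lower, and the higher genes were 37.1% of those past the fold, or 49.9% after scaling by the median ratio and 47.0% after quantile normalization. The median difference was 0.15 over the members and -0.07 over all genes compared.

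In the colonies, 9 of the 12 endothelial markers were below 1 FPKM in both libraries. Pecam1 was at 1.39 FPKM without SP and 1.56 with SP, and Cdh5 at 0.12 in both. Erg was lower with SP (10.3 to 1.41 FPKM) and Egfl7 higher (1.74 to 3.59). For the counts that follow, 11.7% of all genes compared were higher with SP and 19.8% lower. Of the 10 basal markers 7 were higher with SP, among them Krt5 (1888 to 4579 FPKM) and Krt14 (3298 to 6920). The 1 lower was Oxtr (10.2 to 8.07), which was no longer counted as lower after scaling by the median ratio. Of the 12 luminal markers 6 were lower and 0 higher, and 4 were lower after that scaling. Of the 10 fibroblast markers 7 were compared, with 4 lower, among them Col1a2 (20.6 to 3.94 FPKM), and 2 higher. Col3a1, among the 4, was below 1 FPKM with SP and could be counted only as lower. The sum of the fibroblast list went from 47.7 to 31.0 FPKM. The part of the endothelial, basal, luminal and fibroblast markers in the result was not tested.

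Between control colonies and sorted control cells, Procr was 75.7 times lower and Thbd 255 times lower in the colonies by FPKM, with log2 differences of -5.87 and -5.78. The difference of Thbd was -7.54 at a pseudocount of 0.1 and -3.81 at 5. Of the 12244 genes compared, 18 had a lower difference than Procr and 20 a lower one than Thbd. The 5 members counted as lower were Procr, Thbd, F3, Pros1 and F2r, and 0 were higher, while 13.2% of all genes compared were lower and 30.7% higher. Thbd passed the filter only through the sorted library, so that here it could be counted only as lower. The median over all genes was 0.45, a shift toward the colonies that scaling by the median ratio takes away. Relative to that shift, Procr was at -6.31, Thbd at -6.08, F3 at -2.86, Pros1 at -2.04, F2r at -1.71, Tfpi at -0.50 and F2rl1 at 0.44, and the same 5 members were past the fold. Of all genes past the fold, 69.9% were higher, 46.0% after that scaling and 52.4% after quantile normalization. This comparison shares its 2 libraries with the treatment comparisons, so their values are only set side by side.

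The endothelial markers were set beside Procr and Thbd here too. Of the 12 markers 11 were lower and 0 higher, beside 13.2% and 30.7% of all genes. The median difference of the markers was -4.33, and all 12 were lower after scaling by the median ratio. Of the 11, 9 were below 1 FPKM in control colonies and passed the filter on low values only through the sorted library, so that they could be counted only as lower. Plvap (106.0 to 0.34 FPKM), Cdh5 (77.9 to 0.12) and Cldn5 (37.6 to 0.10) were near 0 in the colonies, and the sum of the list was 33.9 times lower. Of the 10 basal markers 5 were lower and 0 higher, and the contractile genes Myh11 (467 to 11.2 FPKM), Cnn1 (515 to 30.4) and Mylk (116 to 3.33) were the lowest relative to sorted cells. Of the 10 fibroblast markers 9 were compared, with 6 lower and 1 higher. Lum and Dpt, among the 6, were below 1 FPKM in control colonies and could be counted only as lower. Of the 12 luminal markers 5 were higher and 0 lower, and 4 were higher after scaling by the median ratio. Elf5 (0.63 to 22.5 FPKM), among the 5, was below 1 FPKM in sorted control cells and could be counted only as higher. Culture and the other cell types of the sorted libraries cannot be told apart in this comparison, and the part of these lists in the result was not tested.

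**Figure D2:**
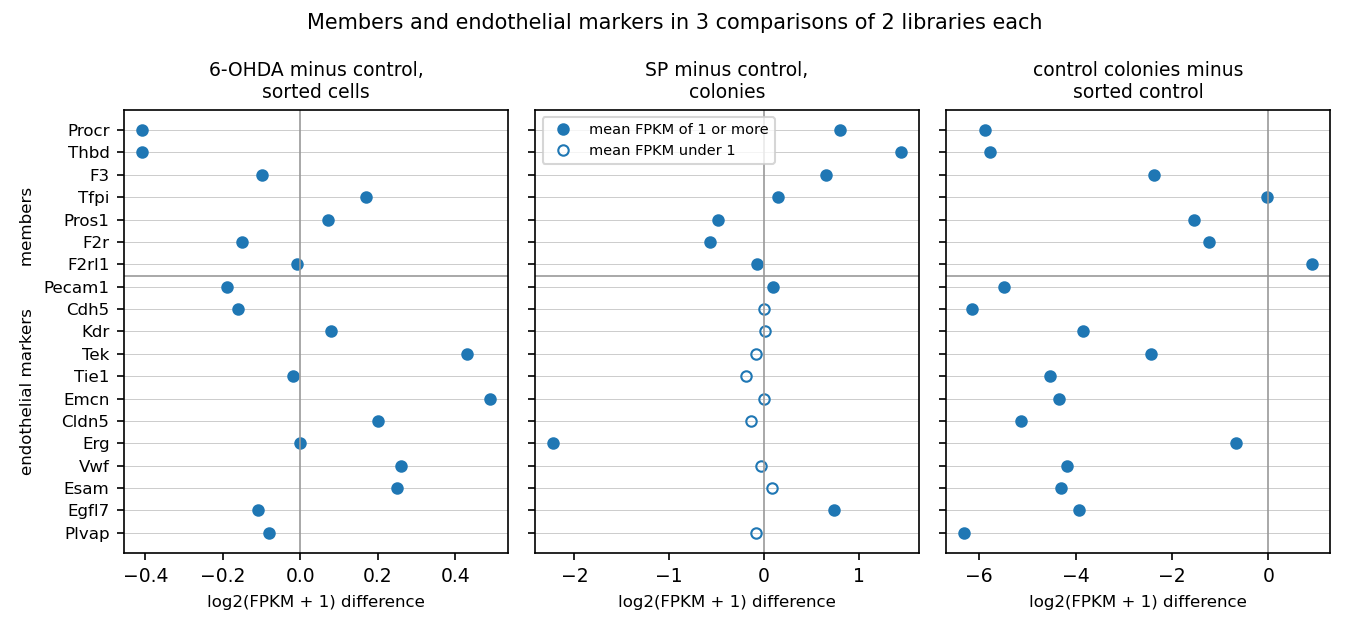
Difference in log2(FPKM + 1) of the 7 members and of the 12 endothelial markers in each comparison of 2 libraries, with a scale of its own in each panel; open points have a mean under 1 FPKM. With 6-OHDA the members Procr and Thbd lie at -0.41 and the markers between -0.19 and 0.49, and between control colonies and sorted cells Procr, Thbd and 11 of the 12 markers lie below -1.

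The genes whose pattern was most like that of Procr were found by the distance between log2(FPKM + 1) profiles, each centred on its own mean over the 4 libraries, among 12234 other genes with a mean of at least 1 FPKM. The nearest 5 were Osgin1 (distance 0.17), Maff (0.26), Pecam1 (0.52), Myh11 (0.54) and Flnc (0.54). Osgin1 was listed at 213.8 FPKM in sorted control cells, 140.6 in sorted 6-OHDA cells, 2.75 in control colonies and 5.03 in SP colonies. Maff was listed at 247.5, 205.0, 4.03 and 8.36 FPKM in the same order. These patterns rest mainly on the gap between sorted cells and colonies. Of the members, Thbd was the nearest, at rank 12 (0.63), followed by F3 at rank 570 (3.29) and Pros1 at rank 781 (3.59). Of the 12 endothelial markers 6 were among the nearest 50 genes, and of the 10 basal markers 2, Myh11 and Mylk.

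Pros1 (NCBI Gene 19128, chr16:62854307-62929346) encodes protein S, the cofactor of activated protein C and also a ligand of the TAM receptor kinases. It was listed at 103.6 FPKM in sorted control cells, 108.6 in sorted 6-OHDA cells, 34.9 in control colonies and 24.7 in SP colonies. The sorted libraries were high and alike, and SP colonies were below control colonies, with differences of 0.07 with 6-OHDA, -0.48 with SP and -1.54 in control colonies against sorted control cells. Pros1 thus lay on the opposite side of the SP comparison from Procr and Thbd.

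The rest of the protein C pathway list held a further gene at more than 5 FPKM. F8, which encodes coagulation factor VIII, was listed at 13.3 FPKM in sorted control cells, 7.67 in sorted 6-OHDA cells, 0.64 in control colonies and 0.38 in SP colonies, a difference of -0.72 with 6-OHDA. F5, which encodes factor V and is named here after its values were seen, was at 0.36, 0.25, 4.76 and 4.61 FPKM. Proc, which encodes protein C itself, the ligand of the receptor, was at 0.43 FPKM or less in all 4 libraries. The list includes the members Procr, Thbd and Pros1, which are counted again here. Of its 6 genes in the files, 4 were compared with 6-OHDA. Of these 3 were lower (Procr, Thbd and F8) and 0 higher, beside 8.35% and 15.8% of all genes. With SP 4 were compared, with 2 higher (Procr and Thbd) and 1 lower (Pros1), beside 11.7% and 19.8% of all genes. Between control colonies and sorted control cells 5 were compared. Of these 4 were lower (Procr, Thbd, Pros1 and F8) and 1 higher (F5), beside 13.2% and 30.7% of all genes. In that comparison F5, Thbd and F8 were below 1 FPKM in 1 of the libraries and could be counted in 1 direction only.

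Among the partners of protein S, Gas6, the other ligand of the TAM receptors, was listed at 133.5 FPKM in sorted control cells, 124.0 in sorted 6-OHDA cells, 78.4 in control colonies and 45.1 in SP colonies. The receptor Tyro3 was at 3.24, 3.12, 20.6 and 13.3 FPKM and Mertk at 7.53, 9.25, 2.69 and 1.92 FPKM. Axl, named here after its values were seen, stayed between 101.4 and 114.2 FPKM. Tyro3 and Mertk thus went opposite ways between sorted cells and colonies. Of the 5 genes, Pros1 included, 4 were lower with SP and 0 higher, beside 19.8% and 11.7% of all genes. After scaling by the median ratio 3 were lower. With 6-OHDA 0 of the 5 passed the fold.

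Protein S and protein C need vitamin K dependent carboxylation, and the 4 genes of that list were compared in each pair. Ggcx, the carboxylase, was listed at 3.05 FPKM in sorted control cells, 3.68 in sorted 6-OHDA cells, 8.45 in control colonies and 7.53 in SP colonies. Vkorc1 was between 44.8 and 59.4 FPKM, Vkorc1l1 between 13.9 and 17.9, and Calu between 217.5 and 276.5. None of the 4 passed the fold with 6-OHDA or SP, and Ggcx did between control colonies and sorted control cells (1.22), though not after scaling by the median ratio.

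F3 (NCBI Gene 14066, chr3:121723537-121735052), which encodes tissue factor, was listed at 102.2 FPKM in sorted control cells, 95.6 in sorted 6-OHDA cells, 18.9 in control colonies and 30.6 in SP colonies. The sorted libraries were close to each other (difference -0.10), and the colonies were lower (-2.37 in control colonies against sorted control cells), with SP colonies above their control (0.66). Its inhibitor Tfpi (NCBI Gene 21788, chr2:84432855-84476775) was listed at 10.4, 11.8, 10.1 and 11.4 FPKM in the same order. The highest Tfpi level was 1.17 times the lowest, and none of its differences passed the fold. The related inhibitor Tfpi2 was at 12.1, 8.22, 0.82 and 0.30 FPKM, lower with 6-OHDA (-0.50) and lower in control colonies than in sorted control cells (-2.84). F7, the protease that tissue factor binds, and F10, which that complex activates, were at 0.07 FPKM or less in all 4 libraries. With 6-OHDA 3 of the 5 listed genes were compared, with 1 lower, beside 8.35% of all genes. With SP 2 were compared, with 1 higher, beside 11.7% of all genes.

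Among serpins that inhibit coagulation proteases, Serpine2, which encodes protease nexin-1, an inhibitor of thrombin, was at 12.2 FPKM in sorted control cells, 19.6 in sorted 6-OHDA cells, 117.1 in control colonies and 65.9 in SP colonies. It was higher with 6-OHDA (0.64), lower with SP (-0.82) and higher in control colonies than in sorted control cells (3.16).

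Of the coagulation factors made in the liver, 10 were in the files and 8 of these were below 1 FPKM in all 4 libraries. The other 2 were fibrinogen chains. Fgg was listed at 53.4 FPKM in sorted control cells, 57.1 in sorted 6-OHDA cells, 9.30 in control colonies and 4.33 in SP colonies, and Fgb at 12.6, 10.4, 0 and 0.15 FPKM. Fga, the third chain, was at 0.05 FPKM or less. F2, which encodes prothrombin, was at 0.19 FPKM or less.

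F2r (NCBI Gene 14062, chr13:95601780-95618466) encodes PAR1, the thrombin receptor that activated protein C bound to its receptor can also cleave. It was listed at 24.3 FPKM in sorted control cells, 21.8 in sorted 6-OHDA cells, 9.76 in control colonies and 6.24 in SP colonies. F2rl1 (NCBI Gene 14063, chr13:95511718-95525240) encodes PAR2 and lies 76.5 kb from F2r. It was listed at 10.8, 10.8, 21.3 and 20.3 FPKM in the same order. PAR1 transcripts were thus the higher in sorted cells and PAR2 transcripts in colonies. The difference of F2r was -0.15 with 6-OHDA, -0.57 with SP and -1.23 in control colonies against sorted control cells, and at a pseudocount of 5 the last was -0.99, short of the fold. That of F2rl1 was -0.01, -0.07 and 0.91. The remaining receptors of the family, F2rl2 and F2rl3, were at 0.71 FPKM or less.

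Proteases of epithelial cells that can activate PAR2, and their inhibitors, were described from a list of 10 genes. Prss8, which encodes prostasin, was at 3.45 FPKM in sorted control cells, 3.82 in sorted 6-OHDA cells, 23.4 in control colonies and 13.7 in SP colonies, and the inhibitor Spint1 was at 12.5, 9.21, 71.7 and 54.6 FPKM. Tmprss4 was at 0.26, 0.16, 3.93 and 13.3 FPKM, and Prss22 at 9.37, 7.46, 1.82 and 2.36 FPKM. Of 9 genes compared between control colonies and sorted control cells, 6 were higher and 1 lower, beside 30.7% and 13.2% of all genes. Tmprss4, among the 6, was below 1 FPKM in sorted control cells and could be counted only as higher. With SP 1 was higher, Tmprss4, and 4 were lower, beside 11.7% and 19.8% of all genes, and 2 were higher after scaling by the median ratio. With 6-OHDA 1 of 8 was lower, Spint1 (-0.40), beside 8.35% of all genes, and 2 were lower after that scaling.

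Kallikreins of the epidermis, some of which cleave PAR2, were all below 1 FPKM in both sorted libraries. Klk8 was listed at 0.28 FPKM in sorted control cells, 0.71 in sorted 6-OHDA cells, 28.4 in control colonies and 137.2 in SP colonies. Klk10 was at 0.93, 0.70, 3.04 and 34.6 FPKM, and Klk6 was listed at 0 in both sorted libraries and at 11.3 FPKM in SP colonies. Klk14 was at 0.06, 0, 0.95 and 6.75 FPKM. The list summed to 1.78 FPKM in sorted control cells, 2.09 in sorted 6-OHDA cells, 36.7 in control colonies and 200.8 in SP colonies. With SP, 6 of the 8 genes in the files were compared and all 6 were higher, by 1.38 to 3.14, beside 11.7% of all genes. Between control colonies and sorted control cells 3 were compared and all 3 were higher, beside 30.7% of all genes, and 2 after scaling by the median ratio. These 3 genes, Klk6, Klk8 and Klk10, passed the filter on low values only through the colonies, so that they could be counted only as higher. With SP, too, 2 of the 6 genes, Klk14 among them, passed that filter only through the SP library and could be counted only as higher. The receptor F2rl1 itself differed by -0.07 in the same pair.

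Behind the receptors, the list of G proteins and arrestins was compared in full. Arrb1 was at 23.1 FPKM in sorted control cells, 23.2 in sorted 6-OHDA cells, 3.11 in control colonies and 3.38 in SP colonies, and Arrb2 at 3.07, 3.42, 8.71 and 6.29 FPKM. Between control colonies and sorted control cells Arrb1 was lower (-2.55) and Arrb2 higher (1.25), and Arrb2 was no longer past the fold after scaling by the median ratio or quantile normalization. Gna13 was at 43.9, 39.1, 26.3 and 23.5 FPKM and Gna11 at 15.4, 16.9, 24.6 and 26.4 FPKM. With 6-OHDA 0 of the 7 genes passed the fold. With SP 2 were lower, beside 19.8% of all genes, Arrb2 (-0.41) and Gna12 (-0.42), the last named after its values were seen.

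Over the 52 genes of the pathway lists other than the members, 29 were compared with 6-OHDA, with 1 higher and 3 lower, where 15.8% of all genes compared were higher and 8.35% lower. With SP 34 were compared, with 8 higher and 11 lower, beside 11.7% and 19.8% of all genes. Between control colonies and sorted control cells 34 were compared, with 14 higher and 8 lower, beside 30.7% and 13.2% of all genes. Of these, 5 of the 14 and 3 of the 8 passed the filter on low values through 1 library only, as did 2 of the 8 higher with SP, and could be counted in 1 direction only. In that comparison 11 were higher and 10 lower after scaling by the median ratio, and 11 and 9 after quantile normalization.

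Promoter sequences of the members were searched for a set list of motifs, as a description. Windows of 300 bases from RefSeq (GRCm38.p6) were matched for 5 of the 7 members, all but Thbd and F2rl1. The letters searched, on both strands, were TGACGTCA (cAMP response element), TGACTCA (AP-1 site), ACGTG (hypoxia response element core) and GGGCGG (GC box). Of 32851 promoter windows of that length, 1.79% held the first, 5.20% the second, 19.6% the third and 35.7% the fourth. The first was in no window of the 5 members. TGACTCA or its reverse complement was in the windows of Procr, F3 and F2r, ACGTG in one of Tfpi, and GGGCGG in those of F3, Tfpi, Pros1 and F2r. Procr and F3 were higher with SP and F2r lower, while all 3 were lower in control colonies than in sorted control cells, as were 5 of the 7 members. The parts of these windows upstream of the first start annotated in either RefSeq or GENCODE vM21, which for Procr and F2r lies outside the RefSeq gene given above, are given 5′ to 3′ on the strand of the gene, with the AP-1 letters in capitals, for Procr at chr2:155750967-155751116 (plus strand), F3 at chr3:121723287-121723536 (plus strand) and F2r at chr13:95618488-95618716 (minus strand). A match is a description of the letters only.
Procr: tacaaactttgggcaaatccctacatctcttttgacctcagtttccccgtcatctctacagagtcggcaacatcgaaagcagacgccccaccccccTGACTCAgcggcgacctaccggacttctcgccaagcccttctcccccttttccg
F3: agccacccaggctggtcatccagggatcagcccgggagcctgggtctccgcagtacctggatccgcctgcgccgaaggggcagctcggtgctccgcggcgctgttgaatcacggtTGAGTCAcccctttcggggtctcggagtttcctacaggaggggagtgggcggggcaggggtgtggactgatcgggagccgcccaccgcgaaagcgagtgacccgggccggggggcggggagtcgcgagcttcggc
F2r: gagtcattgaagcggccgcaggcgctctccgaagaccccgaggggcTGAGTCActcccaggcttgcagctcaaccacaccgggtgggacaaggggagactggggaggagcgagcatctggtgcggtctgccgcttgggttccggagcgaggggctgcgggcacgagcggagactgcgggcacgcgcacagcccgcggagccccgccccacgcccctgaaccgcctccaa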

How the data were processed

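RNA of sorted basal cells or of colonies was sequenced on a DNBSEQ platform by the authors. FPKM values per gene were deposited, made by the authors with RSEM 1.3.1 after alignment with Bowtie2 to mm10, per the labels and processing notes, which also name DESeq2 1.4.5. Gene IDs were matched to symbols with a RefSeq table (GRCm38.p6). Here FPKM values were used as deposited, and log2(FPKM + 1) differences were computed between libraries for genes with a mean of at least 1 FPKM. FPKM values are not counts, and no count test was run. Named genes were the members, the genes of each list with at least 5 FPKM in any library (the 4 with the largest differences where there were more), the leading gene of each cell type list and the 5 genes most like Procr. A gene of the serpin list that this rule takes is not reported here. The members and lists were chosen with earlier results of these data known. Alternatives were other pseudocounts, scalings, filters and folds. Scripts used Python 3.11.15, numpy 2.4.6, pandas 2.3.3 and matplotlib 3.10.9 and were tested on simulated data.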

Additional observations from a re-analysis of the deposited data

How the results depend on the processing

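With no replicates, a difference was taken as moved when it shifted by more than 0.3. Of 112 differences of the members recomputed under other pseudocounts and scalings, 110 kept their direction and their side of the fold, and none past the fold changed sign, while 17 moved, among them all 7 members between control colonies and sorted control cells after scaling by the median ratio. Of 66 counts of members or pathway genes, 7 changed by more than 1.5 times. The differences that did not keep direction and side were F2r between control colonies and sorted control cells and, with 6-OHDA, F2rl1, which went from -0.01 to 0.01. With 6-OHDA, Procr ranged from -0.47 to -0.39. Rescaling without the salivary gland secretory genes, chosen after seeing the data, changed each library by a single factor and gave -0.39 for Procr and Thbd. With SP, Procr was 0.47 at a pseudocount of 5, and Thbd ranged from 0.51 to 2.80, so the size of these changes depends on the pseudocount. Between control colonies and sorted control cells, Procr was -6.20 at a pseudocount of 0.1, -4.95 at 5 and -6.31 after scaling by the median ratio. Thbd ranged from -7.54 to -3.81 there. At a fold of 1, 0 members were lower with 6-OHDA, and with SP 1 was higher and 0 lower. The share of all genes past a fold of 1 was not counted for 6-OHDA or SP. With a mean of at least 5 FPKM, 1 member was higher with SP, since Procr and Thbd were no longer compared. At a fold of 0.3, 1 member was higher in control colonies than in sorted control cells. The median over all genes there, 0.45, was itself past that fold, and the share of all genes past it was not counted. The scalings of the pathway lists were chosen after seeing the data, and 5 genes were lower with 6-OHDA after scaling by the median ratio or quantile normalization.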

Other observations

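The preparation of the study lyses red cells, and its gate also leaves out cells with TER119, a red cell marker. The platelet and red cell markers, which bear on coagulation genes in sorted cells, were at a low level. Itga2b was their most abundant gene in both sorted libraries, with 10.8 FPKM in 6-OHDA cells and a higher level in control cells, and Pf4 was at 4.95 and 0.93 FPKM. The hemoglobin genes went the other way, Hba-a1 from 1.01 to 4.77 FPKM and Hbb-bs from 0.47 to 3.68. Beside 15.8% and 8.35% of all genes, 2 of the 4 genes compared with 6-OHDA were thus higher and 2 lower. Of these, Hbb-bs and Pf4 were below 1 FPKM in 1 of the libraries and could be counted in 1 direction only. In the colonies Pf4 was listed at 0 and Itga2b was at 0.69 and 0.38 FPKM. The list of 8 genes summed to 22.4 FPKM in sorted control cells, 21.0 in sorted 6-OHDA cells, 2.19 in control colonies and 2.10 in SP colonies. The pericyte markers summed to 268, 218, 158 and 132 FPKM in the same order, led by Mcam in each. With 6-OHDA Mcam was lower (220.6 to 161.6 FPKM) and Rgs5 higher (19.2 to 27.1), and the other 6 pericyte markers were within the fold. Between control colonies and sorted control cells 7 pericyte markers were compared. Of these 5 were lower and 1 higher, beside 13.2% and 30.7% of all genes, and 6 and 0 after scaling by the median ratio. Of the 5, Rgs5, Kcnj8, Abcc9 and Des were below 1 FPKM in control colonies and could be counted only as lower. The mesothelial list was led by Upk1b, at 3.34 FPKM or less, and the adipocyte list summed to at most 3.90 FPKM, in control colonies, led there by Adipoq.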
